A study of Mus musculus with 14 samples.

Results

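The T cell receptor complex and its proximal signalling proteins were followed through a list of 36 genes, chosen by name: receptor chains and coreceptor, kinases, adaptors and effectors, phosphatases and negative regulators, and NFAT factors. All 36 were found among the 30284 genes of the deposited tables, and all 36 were among the 15775 genes with enough reads to be tested. The RNA came from regulatory T (Treg) cells of the spleen of C57/B6 mice, gated by flow cytometry as Foxp3+YFP+. Control animals were Tln1wt/wtFoxp3cre/wt, and the other group was Tln1fl/flFoxp3cre/wt, in which Cre recombinase made from the Foxp3 locus acts on floxed alleles of Tln1, the gene of the integrin adaptor talin. Both groups carried the Cre allele on 1 of the 2 Foxp3 copies. Foxp3 lies on the X chromosome, so in such animals the YFP gate takes the Treg cells that use the Cre allele. The libraries held RNA of 1 or 2 animals each, and the labels gave no age. The 14 sequenced samples formed 7 units, 4 control and 3 knockout-labelled, since each unit had been deposited in 2 parts that were added here. Whether each unit was a separate animal was not stated, and p-values reflect only the scatter of these 7 units, which may be technical.

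Estimated reads in genes ran from 12851425 to 39214264 in the control units and from 38811489 to 56109143 in the knockout-labelled units. Total Tln1 was not lower in the latter, at 788, 901 and 1010 CPM (counts scaled to library size) against 634, 543, 847 and 649 CPM in the control units (edgeR adjusted p = 0.126). The floxed exons are not given in the sources used here, so a gene total does not check the deletion, and the group is called knockout-labelled throughout. Foxp3, the lineage factor of Treg cells, stood at 324 to 478 CPM in the control units and 370 to 514 CPM in the knockout-labelled units. Markers of other cells moved with the label. The summed level of 14 B cell markers was 444 to 1310 CPM in the control units and 3760 to 8870 CPM in the knockout-labelled units, with 10 of 14 called higher and none at 0 in any unit. The summed level of 14 myeloid and neutrophil markers was 74.9 to 169 CPM against 462 to 1980 CPM, with 8 of 14 called higher and Itgam, Cd14, Elane and S100a8 at 0 in at least 1 control unit. Of 10 dendritic cell markers 5 were called higher (48.6 to 70.8 against 127 to 172 CPM), with Itgax, Flt3, Clec9a, Batf3 and Cd209a at 0 in at least 1 unit, and of 10 CD8 T and NK cell markers 6 were called higher (34.9 to 44.8 against 66.3 to 134 CPM). Erythroid and platelet markers, 1 of 9 tested called higher, reached 2510 CPM in knockout-labelled unit 3 and 115 to 231 CPM in the other two, against 38.4 to 79.0 CPM in the control units, with Klf1, Pf4 and Ppbp among those at 0 in at least 1 unit. Of 8 genes of T and Treg cell identity 2 were called lower, Il2ra and Ikzf2, and their sum was 3840 to 4690 CPM in the control units and 2540 to 3470 CPM in the knockout-labelled units. The part of these other-cell transcripts in the results below was not tested. In such bulk samples fewer cells of a type and less RNA per cell cannot be told apart.

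The T cell receptor recognises a peptide held by an MHC molecule and signals through the CD3 chains and the zeta chain, whose cytoplasmic motifs are phosphorylated by the Src family kinases Lck and Fyn. Zap70 then docks on these motifs and phosphorylates the scaffolds Lat and SLP-76, on which phospholipase C-gamma, Vav1 and other effectors assemble. Calcium entry releases NFAT factors into the nucleus, while protein kinase C-theta, Bcl10 and Malt1 lead to NF-kappaB. The phosphatase CD45 keeps Lck ready for use, and Csk, PTPN22, SHP-1, the Cbl ubiquitin ligases and the Src-like adaptors restrain the pathway. Treg cells depend on T cell receptor signals for their development and for much of their suppressive function.

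Few of the 36 genes were called different between the groups, and none had a fold change as large as 2. At a false discovery rate of 0.05, 2 members, Cd3g and Ptpn22, fell in the knockout-labelled units, and 0 rose, whereas edgeR's quasi-likelihood test called 13.6% of all 15775 genes, 7.07% higher and 6.52% lower. The 2 called genes were 5.56% of the members, below the 13.6% among all genes. Of the 36, 10 had an unadjusted p under 0.05. The share of all tested genes under that bound was not counted, so no excess can be read from this number. Log2 fold changes (knockout-labelled minus control) ran from -0.61 to 0.64 with standard errors (SE) of 0.11 to 0.31, and 23 of the 36 lay within 0.3 of 0 on that scale. The median was -0.10, against 0.06 over all tested genes. No member was beyond 1 on the log2 scale in either direction, while 18.8% of all tested genes (2960) were. The values of the groups did not overlap for 9 members: in 7 every knockout-labelled unit lay below every control unit (19.4% of members, 14.1% of all tested genes), and in 2, Tec and Ptpn6, every knockout-labelled unit lay above (5.56% of members, 16.7% of all tested genes). With DESeq2's Wald test in place of edgeR's, 8 of the 36 members were called, 2 higher and 6 lower. That test called 22.5% of all 15775 genes, so the members' share was near that background. Leaving out control unit 4 left 0 members called, and leaving out knockout-labelled unit 3 left 1, Tec, as higher.

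**Figure D1:**
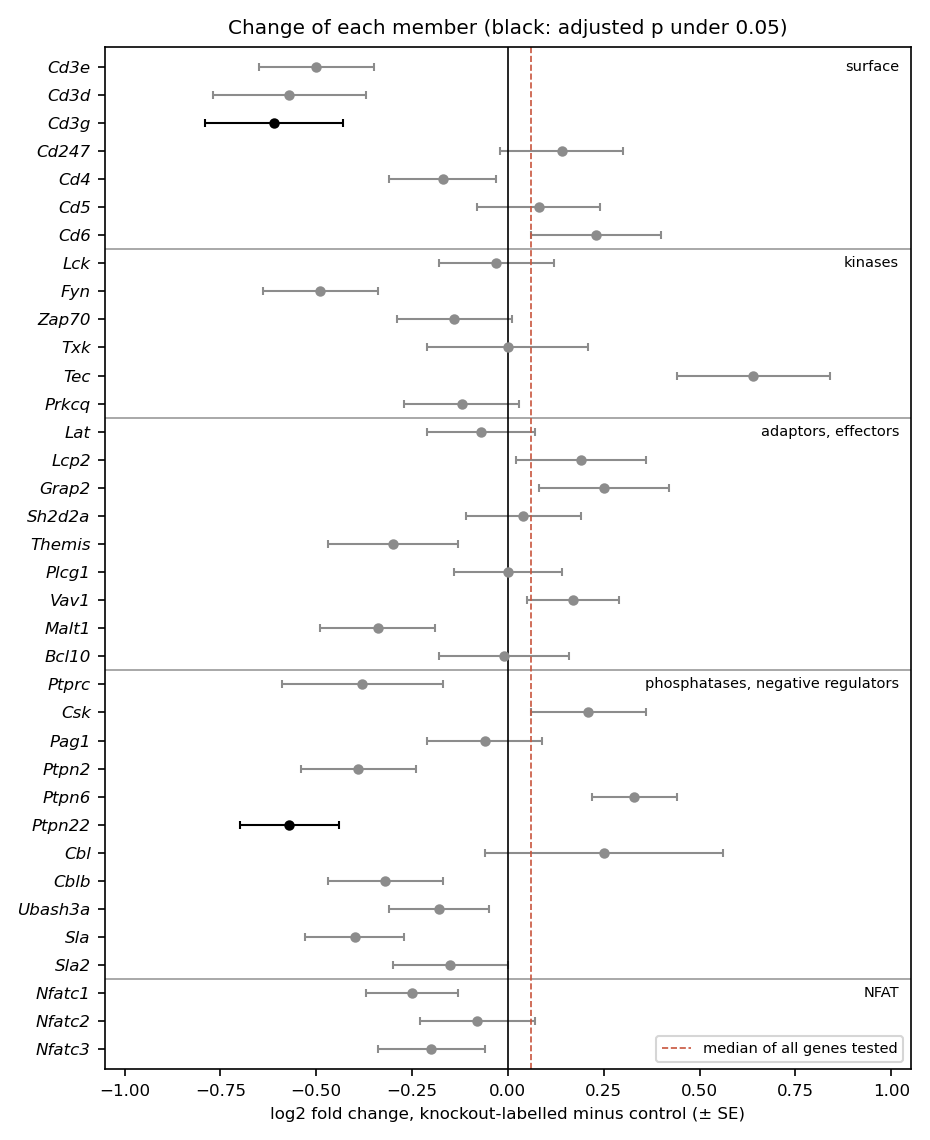
Log2 fold change of each of the 36 members (knockout-labelled minus control; points, with bars of 1 standard error), ordered by role. Values run from -0.61 for Cd3g to 0.64 for Tec, and the 2 called genes, Cd3g and Ptpn22, both lie below 0.

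The roles differed little in their medians. The median log2 fold change was -0.17 for the 7 surface genes, -0.08 for the 6 kinases, 0.00 for the 9 adaptors and effectors, -0.18 for the 11 phosphatases and negative regulators and -0.20 for the 3 NFAT factors. One gene was called lower among the surface genes (1 of 7) and among the negative regulators (1 of 11). None was called among the kinases, the adaptors or the NFAT factors, where 2, 1 and 0 genes respectively had an unadjusted p under 0.05 by edgeR. Under DESeq2's Wald test Fyn and Tec were called among the kinases, and no adaptor and no NFAT factor was.

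Among the receptor chains, Cd3g fell, Cd3d and Cd3e had fold changes of similar size that were not called, and Cd247 lay slightly above 0. Cd3g, Cd3d and Cd3e encode the gamma, delta and epsilon chains that pair with one another around the receptor, and they lie within 40056 bases of chromosome 9 (build GRCm38). Cd3g and Cd3d are read in opposite directions from starts 1355 bases apart. Cd3g (ENSMUSG00000002033, chr9:44969572-44980431, minus strand) stood at 299, 417, 366 and 359 CPM in control units 1 to 4 and at 293, 233 and 183 CPM in units 1 to 3 of the knockout-labelled group. Every knockout-labelled unit lay below every control unit, although unit 1 of each group differed by only a few CPM. The means were 360 ± 48.5 CPM (SD, n = 4) and 236 ± 55.0 CPM (SD, n = 3), a log2 fold change of -0.61 (SE 0.18) with an edgeR adjusted p of 0.0498. That call sat at the threshold: of 7 fits that each left out 1 unit, 2 called it, and it was lost without any one of control units 2, 3 and 4 and knockout-labelled units 2 and 3 (edgeR adjusted p from 0.0302 to 0.148 over the 7). Of 12 other alternatives 4 called Cd3g, among them the one that took all 14 samples as replicates. With an offset for effective length its log2 fold change was -0.41 (edgeR adjusted p = 0.252).

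Cd3e stood at 260, 361, 337 and 296 CPM in the control units and at 236, 235 and 194 CPM in the knockout-labelled units. The groups did not overlap, and the log2 fold change of -0.50 (SE 0.15) missed the threshold in edgeR (adjusted p = 0.0532). Cd3d stood at 217, 329, 289 and 264 CPM against 240, 172 and 145 CPM. Its groups overlapped, since knockout-labelled unit 1 lay above control unit 1, and the log2 fold change was -0.57 (SE 0.20; edgeR adjusted p = 0.0801).

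Cd247 encodes the zeta chain, the signalling subunit that joins the complex last and carries most of its phosphorylation motifs. It lies on chromosome 1, apart from the CD3 cluster, and stood at 251, 326, 307 and 284 CPM in the control units and at 359, 349 and 260 CPM in the knockout-labelled units. These ranges overlapped, with a log2 fold change of 0.14 (SE 0.16; edgeR adjusted p = 0.559). Per unit, the ratio of Cd3g to Cd247 CPM was 1.19, 1.28, 1.19 and 1.26 in the control units and 0.816, 0.668 and 0.704 in the knockout-labelled units. For Cd3e over Cd247 it was 1.04 to 1.11 against 0.657 to 0.746, and for Cd3d over Cd247 it was 0.865 to 1.01 against 0.493 to 0.669. None of these 3 ratios overlapped between the groups. They were formed after the values had been seen and carry no test. Of the 31-base words in the Cd247 transcripts, 54.42% also occurred in transcripts of other genes, and its exons overlap Gm16565 on the same strand and Pou2f1 on the opposite strand, so its total depends on how the estimation divided shared reads; the CD3 genes shared 0% to 2.35%. Trac, the constant region gene of the receptor's alpha chain, was at 246 to 364 CPM in the control units and 273 to 321 CPM in the knockout-labelled units.

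The promoters are shown for Cd3g and Cd3d, the divergent pair with negative fold changes, and for Cd247, whose fold change was near 0. Each run holds the 250 bases before the RefSeq start (build GRCm38.p6), 5′ to 3′ on the gene's strand. Capitals mark every match, on either strand, to the ETS core GGAAGT, the E-box CAGGTG, the GATA core AGATAA, the RUNX core TGTGGT, the TATA box TATAAA or the GC box GGGCGG. The windows are chr9:44980432-44980681 on the minus strand for Cd3g, chr9:44981536-44981785 on the plus strand for Cd3d and chr1:165788431-165788680 on the plus strand for Cd247.
Cd3g promoter: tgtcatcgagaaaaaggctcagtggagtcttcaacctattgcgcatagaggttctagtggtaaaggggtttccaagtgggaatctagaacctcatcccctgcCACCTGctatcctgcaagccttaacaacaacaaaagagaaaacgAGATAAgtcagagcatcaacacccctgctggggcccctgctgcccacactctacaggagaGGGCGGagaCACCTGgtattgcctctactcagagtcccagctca
Cd3d promoter: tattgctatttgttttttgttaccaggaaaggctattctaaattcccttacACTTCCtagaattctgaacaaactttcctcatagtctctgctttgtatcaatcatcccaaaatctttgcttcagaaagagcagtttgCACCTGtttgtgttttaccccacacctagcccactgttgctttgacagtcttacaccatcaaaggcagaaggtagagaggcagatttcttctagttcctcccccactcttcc
Cd247 promoter: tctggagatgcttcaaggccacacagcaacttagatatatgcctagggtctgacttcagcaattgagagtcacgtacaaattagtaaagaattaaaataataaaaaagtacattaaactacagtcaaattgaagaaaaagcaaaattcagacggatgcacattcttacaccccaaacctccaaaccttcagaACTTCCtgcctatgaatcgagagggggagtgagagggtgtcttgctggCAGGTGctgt
All 3 held the E-box CAGGTG, at 1 place each in Cd3d and Cd247 and at 2 places in Cd3g. Cd3d and Cd247 each held 1 ETS core. Cd3g held instead 1 GATA core and 1 GC box, and none of the 3 held the TATA or RUNX letters in this window. The 250 bases before the Cd3e start, not printed here, held 1 ETS core and no CAGGTG. In Cd3e, CAGGTG was present only when the 50 bases after the start were included. RefSeq promoters were matched for 28 of the 36 members. Over windows that also took in the 50 bases after the start, CAGGTG was present in 12 of these 28 and in 20.2% of 32817 mouse promoters, GGAAGT in 14 of 28 and 23.8%, TGTGGT in 3 of 28 and 16.8%, AGATAA in 3 of 28 and 11.2%, TATAAA in 3 of 28 and 13.6%, and GGGCGG in 11 of 28 and 35.6%. No match in the printed windows overlapped another, and no binding was measured.

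The other 3 surface genes had ranges that overlapped between the groups. Cd4, the coreceptor that brings Lck to the receptor, had a control mean of 627 ± 48.3 CPM (SD, n = 4) and a knockout-labelled mean of 557 ± 44.2 CPM (SD, n = 3). Cd5 and Cd6, paired scavenger-type receptors that temper T cell receptor signals, had log2 fold changes of 0.08 and 0.23, with overlapping ranges (369 to 559 against 450 to 531 CPM, and 346 to 517 against 435 to 590 CPM). Cd5 has often been read as a gauge of receptor signal strength.

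**Figure D2:**
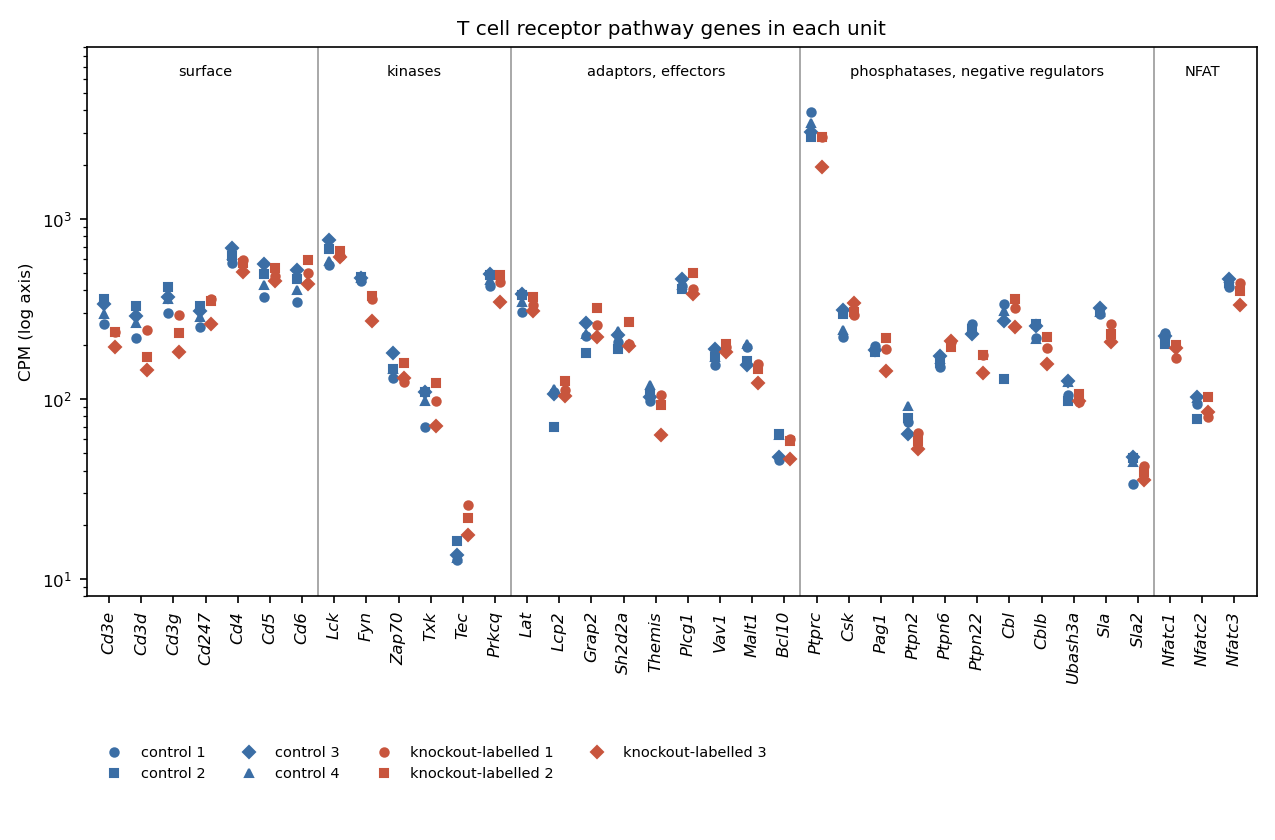
CPM (logarithmic axis) of each of the 36 members in control units 1 to 4 and knockout-labelled units 1 to 3 (points; symbols mark the unit number), ordered by role. Ptpn22, Fyn, Sla and Cd3e show knockout-labelled units all below the control units, and Tec and Ptpn6 show them all above.

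No kinase was called, and Fyn and Tec came closest to the threshold. Fyn, which phosphorylates receptor chains and adaptors, stood at 453, 476, 472 and 471 CPM in the control units and at 359, 373 and 270 CPM in the knockout-labelled units. Its control units lay close together, at 468 ± 10.2 CPM (SD, n = 4), above all 3 knockout-labelled units at 334 ± 55.9 CPM (SD, n = 3). The log2 fold change was -0.49 (SE 0.15), just outside the threshold in edgeR (adjusted p = 0.0516), and it was called in 0 of 7 fits that left out 1 unit (adjusted p from 0.0665 to 0.153). Of 12 other alternatives 6 called it, among them the one that took all 14 samples as replicates. Lck, the kinase held by the coreceptor, stood at 557, 676, 766 and 581 CPM against 624, 662 and 613 CPM, with a log2 fold change of -0.03 (SE 0.15). The ratio of Fyn to Lck was 0.616 to 0.813 in control and 0.440 to 0.575 in knockout-labelled units, again without overlap and without a test.

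Tec, a founding member of the Tec kinase family, which acts on phospholipase C-gamma, was the member with the highest fold change and the lowest level. It stood at 12.7, 16.3, 13.6 and 13.0 CPM in the control units and at 25.6, 21.8 and 17.5 CPM in the knockout-labelled units. The groups did not overlap, with a log2 fold change of 0.64 (SE 0.20; edgeR adjusted p = 0.0551). The B cell marker sum rested mostly on Ighm, the heavy chain gene of IgM. The other 13 B cell markers summed to 135, 59.4, 48.4 and 67.1 CPM in the control units and to 515, 425 and 219 CPM in the knockout-labelled units. The order of units was that of Tec in the knockout-labelled group but not in the control group. There, unit 1 had the highest marker sum and the lowest Tec value. The part of B cell transcripts in the Tec values was not tested. Txk, a related kinase of T cells, had means of 96.4 ± 18.6 CPM (SD, n = 4) and 96.7 ± 25.6 CPM (SD, n = 3). Zap70, which binds the phosphorylated receptor chains, stood at 131, 147, 179 and 146 CPM against 124, 158 and 130 CPM, with overlapping ranges and a log2 fold change of -0.14 (SE 0.15). Prkcq, which encodes protein kinase C-theta, ran from 421 to 492 CPM in the control units and from 344 to 490 CPM in the knockout-labelled units (log2 fold change -0.12, SE 0.15).

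Of the adaptors and effectors, 0 of 9 were called, 4 lay above 0 and 4 below, and the ranges of the groups overlapped for all 9. Malt1, the paracaspase of the NF-kappaB branch, stood at 195, 163, 154 and 203 CPM in the control units and at 156, 147 and 122 CPM in the knockout-labelled units. Knockout-labelled unit 1 lay just above control unit 3, and the log2 fold change of -0.34 (SE 0.15) was not called by edgeR (adjusted p = 0.142). Themis, an adaptor best known from thymocyte selection, stood at 97.4, 107, 102 and 120 CPM against 105, 92.4 and 63.2 CPM (log2 fold change -0.30, SE 0.17). Only knockout-labelled unit 3 was far below the control range. Grap2, which links SLP-76 to Lat, stood at 224, 180, 263 and 229 CPM against 256, 321 and 222 CPM (log2 fold change 0.25, SE 0.17).

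Lat, the membrane scaffold, had means of 353 ± 36.2 CPM (SD, n = 4) and 336 ± 31.2 CPM (SD, n = 3). Plcg1, the phospholipase that makes the calcium-releasing second messenger, had a mean of 431 CPM in each group, to the nearest CPM, with SDs of 22.6 (n = 4) and 62.9 (n = 3). Bcl10, the partner of Malt1, stood at 45.8 to 64.2 CPM in the control units and 46.2 to 60.1 CPM in the knockout-labelled units. Lcp2 (SLP-76), Vav1 (an exchange factor for Rac) and Sh2d2a (the T cell specific adaptor TSAd) had log2 fold changes of 0.19, 0.17 and 0.04.

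Among the 11 phosphatases and negative regulators, 8 lay below 0, and 1, Ptpn22, was called. Ptpn22 encodes a tyrosine phosphatase that acts with Csk on Lck, Fyn and Zap70 and restrains their signal. It stood at 260, 244, 228 and 242 CPM in the control units and at 176, 176 and 139 CPM in the knockout-labelled units. All 3 knockout-labelled units lay well below all 4 control units, with means of 243 ± 12.9 CPM (SD, n = 4) and 164 ± 21.6 CPM (SD, n = 3). The log2 fold change of -0.57 (SE 0.13) was called by edgeR (adjusted p = 0.0224) and kept in 5 of 7 fits that left out 1 unit, but not without control unit 4 (adjusted p = 0.0640) or knockout-labelled unit 3 (adjusted p = 0.0584). When the genome-wide trend of fold change with GC content and length was removed, it was -0.09 (edgeR adjusted p = 0.591), and with an offset for effective length it was -0.90 (edgeR adjusted p = 0.00998).

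Sla, a Src-like adaptor that promotes the turnover of receptor chains, stood at 298, 304, 321 and 303 CPM in the control units and at 259, 230 and 207 CPM in the knockout-labelled units. The groups did not overlap, and the log2 fold change was -0.40 (SE 0.13; edgeR adjusted p = 0.0594). Its relative Sla2 stood at 33.7 to 47.4 against 35.5 to 42.3 CPM; 21.46% of its 31-base words occurred in other genes, and its exons overlap Rab5if on the other strand, which a kit that does not mark strand cannot separate. Ptpn6 encodes SHP-1, a phosphatase of many blood cells, and stood at 151, 159, 174 and 166 CPM in the control units and at 207, 195 and 209 CPM in the knockout-labelled units. Every knockout-labelled unit lay above every control unit, with a log2 fold change of 0.33 (SE 0.11; edgeR adjusted p = 0.0784), and beside it stands the rise of the B cell and myeloid markers, whose part was not tested. With the GC and length trend removed the Ptpn6 value changed sign, to -0.26.

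Ptprc, the gene of CD45, was the most abundant member and stood at 3920, 2860, 3030 and 3410 CPM in the control units and at 2850, 2830 and 1930 CPM in the knockout-labelled units. The groups did not overlap, but unit 2 of the controls and units 1 and 2 of the other group were nearly level, and the log2 fold change of -0.38 (SE 0.21) was not called by edgeR (adjusted p = 0.229). Ptpn2, a phosphatase of Lck and of cytokine signalling, had a log2 fold change of -0.39 (SE 0.15), with 63.7 to 90.8 CPM against 53.0 to 64.9 CPM. Both values became slightly positive, 0.01 and 0.06, with the GC and length trend removed. Csk, the kinase that switches off Lck and Fyn, and Pag1, the membrane protein that anchors it, had log2 fold changes of 0.21 and -0.06.

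The ubiquitin ligases Cbl and Cblb mark receptor chains and adaptors for degradation. Cblb stood at 214 to 259 CPM in the control units and 156 to 221 CPM in the knockout-labelled units (log2 fold change -0.32, SE 0.15). Cbl had the highest SE of log2 fold change among the members, and control unit 2 stood at 129 CPM while the other control units stood at 270 to 338 CPM; its log2 fold change was 0.25 (SE 0.31). Ubash3a, a suppressor that binds ubiquitin, stood at 97.9 to 125 CPM against 95.9 to 106 CPM (log2 fold change -0.18, SE 0.13).

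The 3 NFAT genes encode the transcription factors set free by calcium and calcineurin. Nfatc1 stood at 231, 203, 223 and 229 CPM in the control units and at 169, 198 and 192 CPM in the knockout-labelled units. The groups did not overlap, though knockout-labelled unit 2 came within a few CPM of control unit 2, and the log2 fold change was -0.25 (SE 0.12; edgeR adjusted p = 0.182). Nfatc2 stood at 93.4, 76.9, 103 and 101 CPM against 79.2, 102 and 85.0 CPM (log2 fold change -0.08, SE 0.15). Nfatc3 stood at 420, 441, 461 and 472 CPM against 440, 395 and 334 CPM (log2 fold change -0.20, SE 0.14), where knockout-labelled unit 3 was the lowest of all 7.

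Some transcript forms were called in genes whose totals were not. The tables listed 163 transcripts of the members, of which 132 had a mean of at least 1 TPM (abundance scaled for transcript length and depth) and were tested with limma on log2(TPM + 1), a scale that understates changes of low transcripts. Of the 132, 6 were called (4.55%), 2 higher and 4 lower, against 2.21% of all 34064 tested transcripts (1.26% higher and 0.951% lower). The 6 came from Ptprc, Lck, Fyn and Ptpn22. Of the 2 higher, Ptprc-206 passed the filter on the mean only through the knockout-labelled units. How reads are divided among overlapping transcripts is an estimate by kallisto. Of the members' transcripts, 0 were called without control unit 4, and 1 was called whenever a knockout-labelled unit was left out. Over the 7 fits without 1 unit, Lck-202 was called in 5 and Ptprc-204 and Ptpn22-202 in 3 each. Ptprc-207, Ptprc-206 and Fyn-201 were called in 1 each.

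Ptprc is the best known case of regulated splicing in lymphocytes. Its variable exons A, B and C add length to the outer part of CD45, B cells make the long form that holds all 3 (B220), and activated T cells make short forms. The exons that tell the forms apart are shown, all on the minus strand of chromosome 1 in GRCm38: exon A at chr1:138122456-138122584, exon B at chr1:138120020-138120166, exon C at chr1:138117754-138117894 and the exon after C at chr1:138116954-138117025. All 4 are coding.
Ptprc exon A: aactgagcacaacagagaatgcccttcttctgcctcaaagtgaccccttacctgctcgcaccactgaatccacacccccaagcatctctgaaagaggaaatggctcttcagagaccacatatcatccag
Ptprc exon B: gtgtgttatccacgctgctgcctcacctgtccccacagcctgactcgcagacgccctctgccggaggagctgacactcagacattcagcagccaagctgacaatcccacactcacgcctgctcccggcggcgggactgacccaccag
Ptprc exon C: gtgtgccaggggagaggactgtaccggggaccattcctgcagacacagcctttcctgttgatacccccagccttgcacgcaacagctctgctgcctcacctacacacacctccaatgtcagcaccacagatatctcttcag
Ptprc exon after C: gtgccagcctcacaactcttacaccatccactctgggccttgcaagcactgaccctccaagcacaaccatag
Transcript Ptprc-207 holds all 4 of these exons, Ptprc-203 holds only the exon after C, and Ptprc-204 lacks all 4. Ptprc-204 fell, with 277, 292, 167 and 222 TPM in the control units and 83.2, 73.4 and 62.6 TPM in the knockout-labelled units. The highest knockout-labelled unit lay far below the lowest control unit, and the difference on the log2(TPM + 1) scale was -1.68 (SE 0.23; limma adjusted p = 0.0180). Ptprc-203 was at 237 ± 68.4 TPM (SD, n = 4) and 258 ± 66.1 TPM (SD, n = 3). As a share of all Ptprc TPM, Ptprc-204 was 32.6% ± 13.9 (SD, n = 4) in the control units and 12.6% ± 2.27 (SD, n = 3) in the knockout-labelled units, and Ptprc-203 was 30.6% ± 7.11 and 43.2% ± 2.98.

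Ptprc-207, the form with exons A, B and C, rose, with 11.4, 6.61, 13.8 and 4.69 TPM in the control units and 42.6, 60.0 and 27.6 TPM in the knockout-labelled units. The difference was 2.16 (SE 0.39; limma adjusted p = 0.0373). Its share of Ptprc went from 1.17% ± 0.45 (SD, n = 4) to 7.11% ± 0.969 (SD, n = 3). The 14 B cell markers summed to 444 to 1310 CPM in the control units and to 6680, 3760 and 8870 CPM in knockout-labelled units 1 to 3. Without Ighm the sums in these 3 units were 515, 425 and 219 CPM. Neither sum had the order of Ptprc-207 over the knockout-labelled units. The part of B cell transcripts in this form was not tested. Exon C is whole in no other spliced transcript of the tables, but the retained-intron transcript Ptprc-210 covers it and Ptprc-212 holds its first 57 bases. Ptprc-212 was estimated at 72.5, 0.179, 27.6 and 41.9 TPM in the control units and at 1.2, 0 and 0 TPM in the knockout-labelled units. The sum of Ptprc-207 and Ptprc-212 was 6.79 to 83.9 TPM against 27.6 to 60.0 TPM, which overlapped. The short transcript Ptprc-206 (5 exons, with exon A) was estimated at 0 in all 4 control units and at 1.49, 6.32 and 8.75 TPM in the knockout-labelled units (limma adjusted p = 0.0433). It was tested only because of its level in the knockout-labelled units, so this p-value is no support for a rise. Of 4 other alternatives 0 called Ptprc-206. Summed over every transcript that holds it, exon A was at 6.79 to 83.9 TPM in the control units and 36.4 to 66.3 TPM in the knockout-labelled units, and exon B at 32.9 to 130 against 113 to 192 TPM. Both sums overlapped between the groups.

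Lck is transcribed from a distal and a proximal start, and mature T cells use the distal one more than thymocytes do. Lck-202 is the form from the distal start, at position 129573641 of chromosome 4 on the minus strand, 15250 bases upstream of the start of Lck-201. It fell, with 160, 163, 184 and 161 TPM in the control units and 74.1, 78.6 and 50.5 TPM in the knockout-labelled units (difference -1.31, SE 0.19; limma adjusted p = 0.0203). The groups were far apart, and its share of Lck TPM was 29.5% ± 4.88 (SD, n = 4) and 11.5% ± 2.47 (SD, n = 3). Lck-208, from the proximal region, was at 8.77, 68.4, 86.7 and 0.0691 TPM in the control units and at 111, 119 and 124 TPM in the knockout-labelled units. Its control units spread so widely that the difference of 2.90 (SE 1.39) was not called by limma (adjusted p = 0.289). The gene total, as given above, had a log2 fold change of -0.03.

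Fyn has alternative exons within its kinase region, one used mainly in T cells (FynT) and one in brain (FynB). They are shown, both coding and on the plus strand of chromosome 10 in GRCm38, at chr10:39529919-39530074 for the exon of Fyn-201 and chr10:39529437-39529601 for that of Fyn-202.
Fyn exon of Fyn-201: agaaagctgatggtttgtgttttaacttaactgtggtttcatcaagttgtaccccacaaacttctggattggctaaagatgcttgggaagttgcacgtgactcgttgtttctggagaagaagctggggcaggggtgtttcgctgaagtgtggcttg
Fyn exon of Fyn-202: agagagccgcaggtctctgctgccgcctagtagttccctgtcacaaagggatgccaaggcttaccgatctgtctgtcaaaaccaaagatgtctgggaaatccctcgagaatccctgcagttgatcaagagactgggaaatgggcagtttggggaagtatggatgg
Fyn-201, with the former exon, fell, with 34.4, 51.2, 23.7 and 41.8 TPM in the control units and 14.4, 12.4 and 6.89 TPM in the knockout-labelled units (difference -1.67, SE 0.32; limma adjusted p = 0.0443). Fyn-205, which holds the same exon, was at 30.9 ± 24.2 TPM (SD, n = 4) and 38.3 ± 3.55 TPM (SD, n = 3). Summed over the 4 transcripts with the 156-base exon, the level was 64.0, 62.8, 89.6 and 62.8 TPM in the control units and 54.3, 56.7 and 41.2 TPM in the knockout-labelled units, without overlap. The 165-base exon, held by Fyn-202 alone, stood at 11.2 to 24.1 TPM and 9.95 to 20.2 TPM, which overlapped. In every one of the 7 units the 156-base exon was the more abundant. All Fyn transcripts together stood at 270, 241, 316 and 283 TPM in the control units and at 197, 231 and 144 TPM in the knockout-labelled units. Most of the Fyn estimate thus lay in transcripts that hold neither exon, and the comparison rests on the smaller part.

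Ptpn22-202, a retained-intron transcript of 649 bases that covers 5 exons, fell, with 89.2, 85.2, 49.4 and 97.6 TPM in the control units and 24.2, 19.9 and 18.2 TPM in the knockout-labelled units (difference -1.87, SE 0.26; limma adjusted p = 0.0182). The full-length coding form Ptpn22-201 was at 48.4 ± 5.17 TPM (SD, n = 4) and 36.4 ± 7.75 TPM (SD, n = 3), a difference of -0.42 (SE 0.19; limma adjusted p = 0.275). The retained-intron form made up 49.2% ± 10.1 of Ptpn22 TPM in the control units (SD, n = 4) and 24.6% ± 3.78 in the knockout-labelled units (SD, n = 3).

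**Figure D3:**
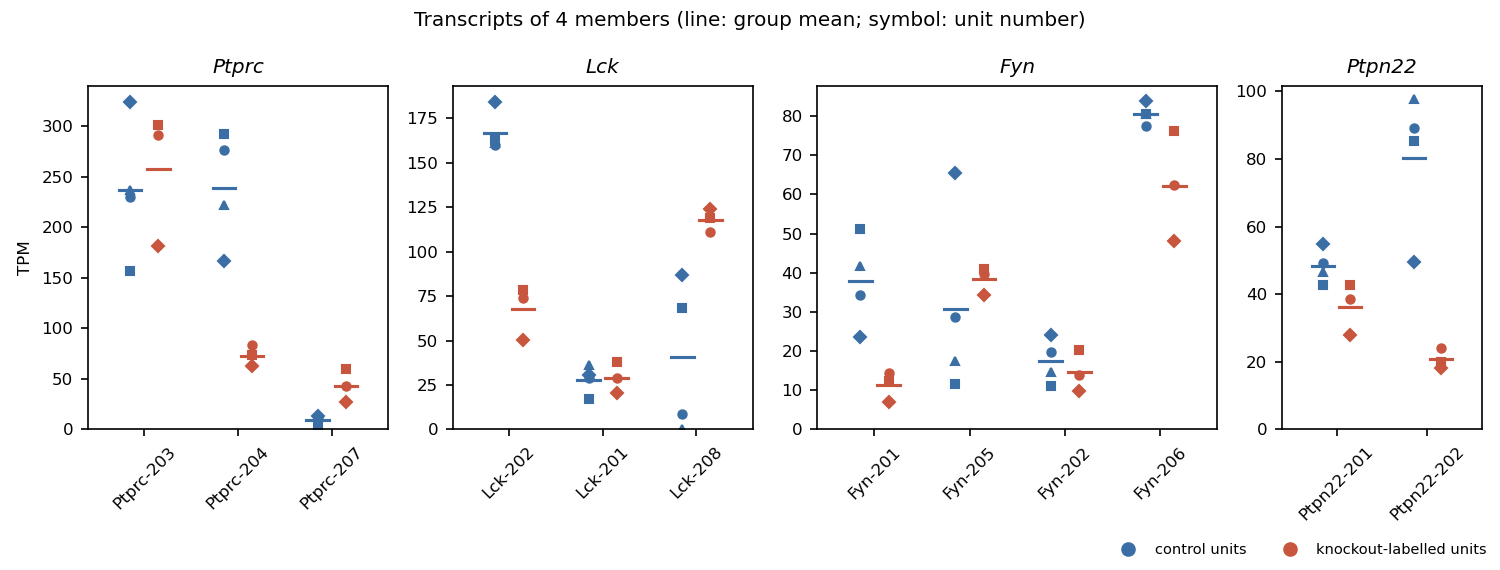
TPM of the main transcripts of Ptprc, Lck, Fyn and Ptpn22 in each unit (points; symbols mark the unit number; lines are group means). Ptprc-204, Lck-202, Fyn-201 and Ptpn22-202 lie lower in all 3 knockout-labelled units than in any control unit, and Ptprc-207 lies higher.

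The members spanned a 110-fold range of levels. Levels between genes were compared as CPM per kilobase of the longest transcript, since TPM totals of Lcp2, Ptpn6, Cd4 and Cd3g rested largely on annotated fragments of 198 to 294 bases (Lcp2-203, of 198 bases, held 89.8% ± 1.49 of Lcp2 TPM in the control units; SD, n = 4). On this scale Ptprc led in the control units, at 576 ± 81.9 CPM per kilobase (SD, n = 4). Cd3g followed at 352 ± 47.2, Lck at 295 ± 43.8 and Lat at 285 ± 29.5 CPM per kilobase, whose ranges overlapped in turn. The other CD3 chains stood at 218 ± 31.1 (Cd3e) and 208 ± 35.4 (Cd3d), while Cd247 stood at 98.7 ± 10.9 CPM per kilobase. The place of Cd247 depended on the length used: its longest transcript has 2957 bases and almost no reads, and the most abundant form, Cd247-201, has 1632 bases. In TPM, Cd247 was at 191 ± 29.4 and Cd3d at 209 ± 36.6 in the control units (SD, n = 4), with overlapping ranges, and in CPM the Cd247 mean (292) was above that of Cd3d (275). Zap70, at 67.1 ± 9.0, was below Lck and Fyn (131 ± 2.87), and Nfatc3 at 74.6 ± 3.81 was above Nfatc1 at 45.2 ± 2.61 and Nfatc2 at 13.7 ± 1.74 CPM per kilobase. Tec was last, at 5.22 ± 0.617 CPM per kilobase. Neighbours in this order had ranges that did not overlap at 6 steps: Ptprc to Cd3g, Cd4 to Cd6, Fyn to Prkcq, Plcg1 to Nfatc3, Themis to Sla2 and Nfatc2 to Tec. At every other step the control units of neighbours overlapped. In the knockout-labelled units Ptprc was again first and Tec last, Cd3g moved from rank 2 to rank 5, and Ptpn22 from rank 14 to rank 21.

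**Figure D4:**
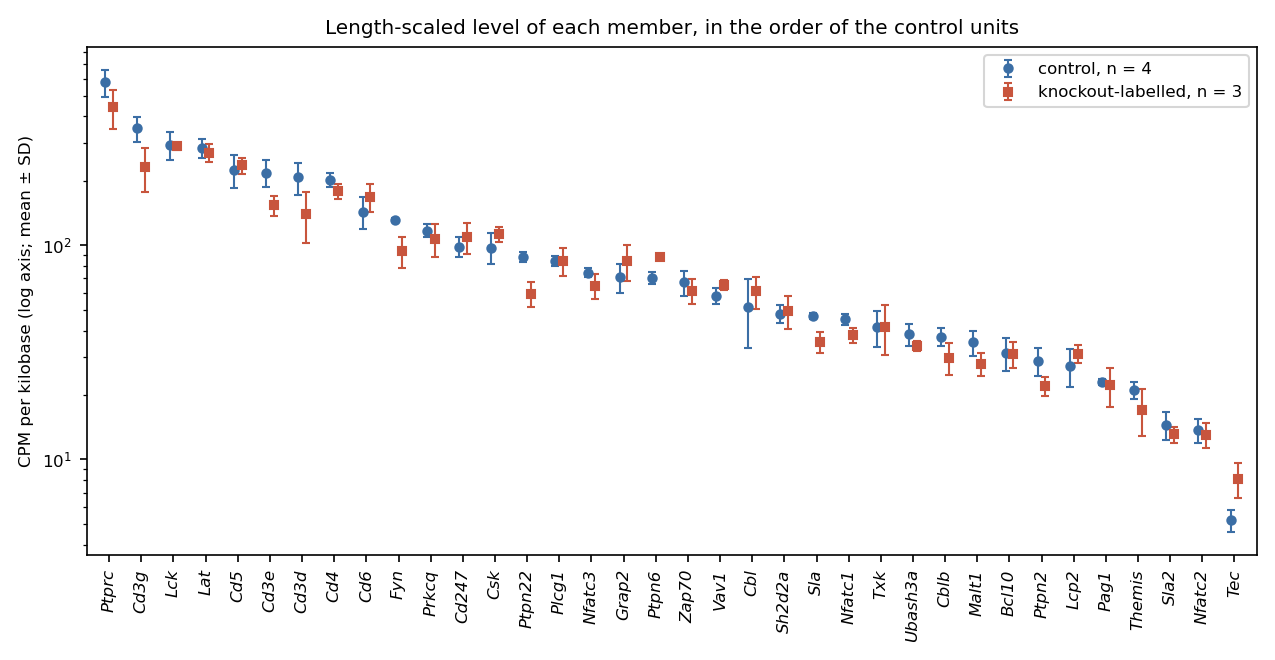
Level of each member in CPM per kilobase (logarithmic axis), as the mean of 4 control and 3 knockout-labelled units with bars of 1 SD, ordered by the control mean. Ptprc is highest at 576 CPM per kilobase in the control units and Tec lowest at 5.22.

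Fold changes of the members moved with the GC content of their transcripts. Across the 36 members Pearson's r between GC content and log2 fold change was 0.45, and across the 15759 tested genes with a GC value it was 0.23; genes are not independent replicates and share these 7 libraries, so these are descriptions. Of the 8 members under 46% GC, 7 lay below 0, with a median of -0.36, and of the 9 members of 54% GC or more, 4 lay below 0, with a median of 0.04. The medians over all tested genes in these classes were -0.32 and 0.35. Both called genes were in the low class, Cd3g at 42.13% and Ptpn22 at 41.71% GC. With the trend of GC and length removed by an offset per gene, the median of the low class was -0.11 and that of the high class was -0.26. Under this offset 5 of the 36 members were called by edgeR, Cd3e (-0.56), Fyn (-0.51), Nfatc1 (-0.55) and Zap70 (-0.44) lower and Tec (0.73) higher, and neither Cd3g (-0.45) nor Ptpn22 was among them. Of all 15775 genes, 8.64% were called under the same offset. Cd3g, Cd3d (-0.60), Cd3e and Fyn were lower on both scales by at least 0.45. Whether the trend arose in the cells or in the libraries was not tested.

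**Figure D5:**
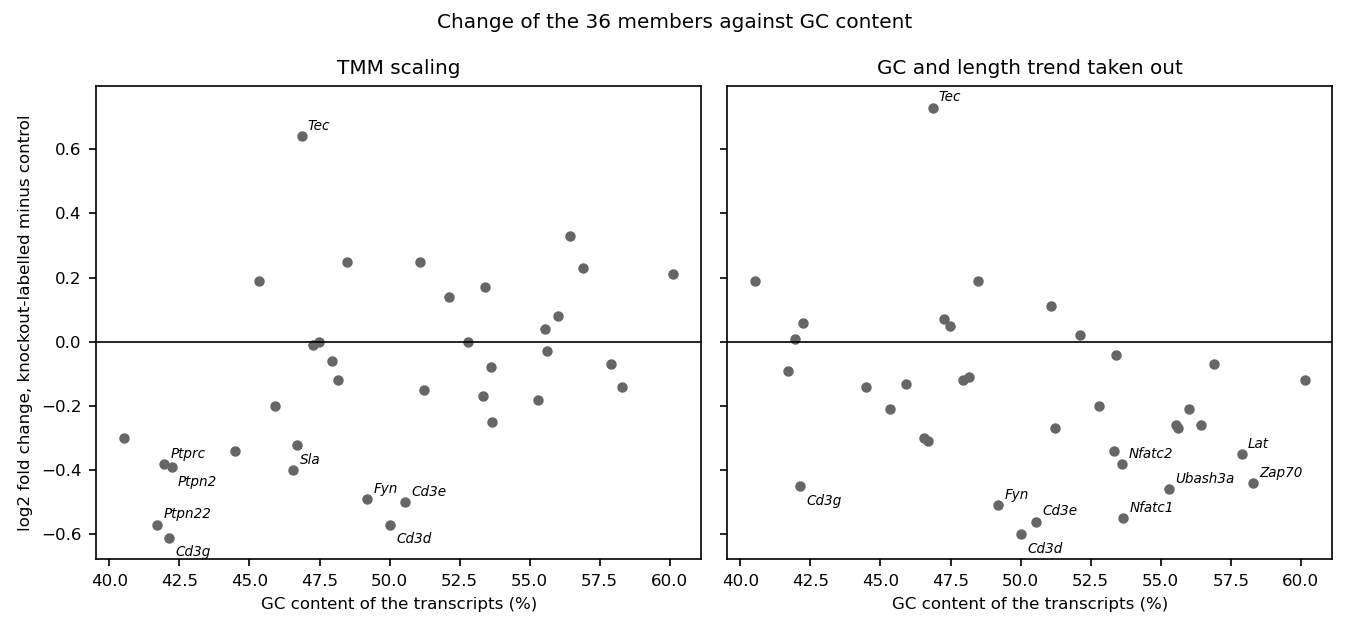
Log2 fold change of each member against the GC content of its transcripts (percent), with TMM scaling (left) and with the genome-wide trend of GC and length removed (right). At left, members under 46% GC have a median of -0.36 and those of 54% or more a median of 0.04; at right the medians are -0.11 and -0.26.

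Further genes of the pathway were taken from a list of 59, all tested, from kinases and scaffolds to calcium entry, calcineurin and the Ras and MAP kinase branch. Of these, 2 were called higher and 5 lower by edgeR, against 7.07% higher and 6.52% lower among all tested genes, so the share was near that background. Their median log2 fold change was 0.02. Ubash3b encodes the phosphatase STS-1, the relative of the member Ubash3a that acts on Zap70, and stood at 71.7, 67.8, 77.3 and 68.0 CPM in the control units and at 37.8, 40.1 and 34.7 CPM in the knockout-labelled units. It fell with no overlap (log2 fold change -0.92, SE 0.12; edgeR adjusted p = 0.00222) and was called in all 7 fits without 1 unit and in all 12 other alternatives. The calcineurin genes Ppp3cb and Ppp3r1, catalytic and regulatory subunits of the phosphatase that frees NFAT, fell by 0.61 (SE 0.14) and 0.63 (SE 0.18) on the log2 scale, from 223 ± 23.9 to 146 ± 19.0 CPM and from 175 ± 25.4 to 113 ± 24.9 CPM (SD, n = 4 and 3). With the GC and length trend removed, the value of Ppp3cb was 0.06 and that of Ppp3r1 was -0.15 (edgeR adjusted p = 0.420), and neither was called. Wipf1, the partner of the Wiskott-Aldrich protein, fell by 0.47 (SE 0.13), from 372 ± 19.9 to 269 ± 31.7 CPM (SD, n = 4 and 3).

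Nedd4, a ubiquitin ligase, rose from 12, 16, 7.42 and 7.85 CPM in the control units to 68.9, 52.9 and 155 CPM in the knockout-labelled units (log2 fold change 3.09, SE 0.47; edgeR adjusted p = 0.0130). The sums of erythroid and platelet, of myeloid and neutrophil and of B cell markers were also highest in unit 3, at 2510, 1980 and 8870 CPM. Without Ighm the B cell sum was lowest there, at 219 CPM. The sums of dendritic cell and of CD8 T and NK cell markers were highest in unit 1, at 172 and 134 CPM. The part of other cells in Nedd4 was not tested. Dok2, an adaptor that dampens Ras signalling, rose by 0.49 (SE 0.14), from 73.5 ± 10.6 to 104 ± 8.71 CPM (SD, n = 4 and 3), and was at 0.13 with the GC and length trend removed (edgeR adjusted p = 0.518). When 1 unit was left out in turn, Nedd4 was called in 7 of 7 edgeR fits, Ppp3cb in 4, Ppp3r1 in 2, Dok2 in 1 and Wipf1 in 0.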

How the data were processed

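RNA of sorted Treg cells was sequenced from non-stranded libraries, per the labels' protocols. The 14 deposited tables were made with kallisto against a GRCm38 transcriptome, per the submitters' processing notes; its version and annotation release are not given in the sources used here. Per the file headers, the authors deposited estimated counts per transcript, TPM (abundance scaled for effective length and depth) and transcript lengths. Here 88198 transcripts were assigned to genes with GENCODE M21. The 2079 without a gene, 1.17% to 1.28% of estimated reads, were left out. Counts were summed per gene and over the 2 parts of a unit and rounded. The parts of a unit differed by a chi-square per degree of freedom of 1.44 to 1.91, where sampling alone gives 1, and were counted as 1 unit.

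Genes were tested with edgeR 4.0.16 (TMM scaling, default filter on low counts, robust quasi-likelihood, 4 control against 3 knockout-labelled units, no covariate), with Benjamini-Hochberg adjustment over 15775 genes and a threshold of 0.05. Transcripts with a mean of at least 1 TPM were tested with limma 3.58.1 on log2(TPM + 1), adjusted over 34064 transcripts. The fits were tested on simulated data. There the edgeR fit called 40% of the 2-fold and 69.7% of the 4-fold changes put in. Of its 120 calls, 9.17% were genes simulated without a change, above the nominal rate of 0.05. Changes under 2-fold were not simulated. Alternatives were other scalings and filters, DESeq2 1.42.0, limma-voom, offsets for effective length and for GC content and length, a replicate block, all 14 samples as replicates and leaving out each unit.

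The members and lists were chosen with earlier results of these data known. Described in detail were members past the threshold and the 3 of each role with the smallest p, and pathway genes and member transcripts past the threshold, at most 8 by p. One called pathway gene and one marker are counted but not reported by name here. Promoters are from RefSeq (GRCm38.p6) and exons from GENCODE M21.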

Additional observations from a re-analysis of the deposited data

Results flagged for a closer look

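One value of 49 series of control values looked at stood apart from its group. Lck-202, the transcript from the distal start of Lck, was at 184 TPM in control unit 3, against 160 to 163 TPM in the other 3 control units. The gap of this unit to its nearest neighbour was 0.875 of the group's whole range, above Dixon's critical value for 4 values. By chance alone about 5% of such groups would stand out. Without this unit the difference of Lck-202 was -1.27 on the log2(TPM + 1) scale (limma adjusted p = 0.0305).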

How the results depend on the processing

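The count of called members, 2 by edgeR, was 1 with library-size scaling, without the low-count filter or with an effective-length offset, 4 with a filter of 1 CPM in 3 units, 8 with DESeq2's Wald test, 5 with the GC and length offset, 15 with all 14 samples as replicates and 0 to 3 when 1 unit was left out. The 7 called pathway genes became 15 with the Wald test, 32 with all 14 samples and 2 to 10 without 1 unit. The 2144 genes called in all became 3546 with the Wald test, 1363 with the GC and length offset, 7012 with all 14 samples and 758 to 1905 without 1 unit. In that order these were 22.5%, 8.64%, 48.7% and 4.87% to 12.2% of the genes tested. The 6 called transcripts became 3 with a pseudocount of 0.1 or without the filter on low values, and 0 to 7 without 1 unit. With a replicate block, whose fit drops control unit 4 for want of a partner, 0 members, 1 pathway gene (Ubash3b), 553 of all genes and 0 member transcripts were called; with the block and the GC and length offset these were 0, 1 and 305, with 70.2% of the calls higher against 52.1%. Same-numbered units of the groups did not clearly deviate together (r of 0.11, -0.13 and -0.10, against -0.18 to 0.19 for other pairs). So few units cannot exclude that equal numbers share a batch, and the labels do not say that they pair units. Whether the lower counts under the block reflect the block itself or the loss of a unit was not tested.

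Signs changed for 16 of 49 genes and transcripts followed, all small values except those of Ptpn6, Themis, Ptprc, Ptpn2 and Ppp3cb. With the GC and length offset the log2 fold change became -0.21 for Cd5, -0.07 for Cd6, -0.21 for Lcp2, -0.26 for Sh2d2a, 0.19 for Themis, -0.04 for Vav1, 0.07 for Bcl10, 0.01 for Ptprc, -0.12 for Csk, 0.06 for Ptpn2, -0.26 for Ptpn6 and 0.06 for Ppp3cb. With the replicate block added it was -0.19 for Cd5, -0.06 for Cd6, -0.18 for Sh2d2a, 0.23 for Themis, 0.18 for Bcl10 (0.06 with the block alone), 0.01 for Ptprc, -0.12 for Csk, 0.16 for Ptpn2, -0.16 for Ptpn6 and 0.08 for Ppp3cb. With the effective-length offset it was 0.17 for Cd4, 0.05 for Lck, -0.17 for Lcp2, 0.16 for Themis and 0.08 for Pag1. Bcl10 was at 0.01 with upper-quartile and 0.02 with library-size scaling. Leaving out 1 unit gave -0.02 to 0.18 for Cd5, -0.09 to 0.06 for Lck, -0.24 to 0.01 for Prkcq, -0.11 to 0.12 for Sh2d2a, -0.09 to 0.10 for Bcl10 and -0.20 to 0.10 for Pag1. The cause of these changes was not tested. Ubash3b alone of the genes followed was called under every alternative run. Reads of the members over all units numbered 4210 (Tec) to 623027 (Ptprc); whether depth or the number of units limits the precision was not tested.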
